A study of Mus musculus with 12 samples.

Results

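The Ly6 genes described here encode 7 surface antigens, Ly6a, Ly6e, Ly6i, Ly6c1, Ly6c2, Ly6d and Ly6g, which were taken by gene symbol from the 55291 rows of a count table of mouse bone marrow RNA. All 7 had counts and all 7 passed the filter on low counts that left 15674 genes for testing. The family is known for small cysteine-rich proteins that a lipid anchor holds on the outer face of the cell membrane, and blood cell types are sorted by them. Ly6a is the stem cell antigen Sca-1, and Ly6e, Ly6a and the monocyte antigen Ly6c2 are known to be induced by interferons. Ly6d marks lymphoid cells that commit to the B lineage, and Ly6g is the antigen by which mouse neutrophils are sorted.

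The libraries formed 4 groups of 3, with RNA of the non-adherent marrow cells of mice aged about 8 weeks, collected after about 24 hours of culture. They are homozygous STAT3Cstopfl/fl CD4Cre mice whose water held short-chain fatty acids (SCFAs), control mice given SCFAs, homozygous mice left untreated and control mice left untreated. STAT3C is a constitutively active STAT3, a transcription factor downstream of cytokines such as interleukin 6. A Cre recombinase under the CD4 promoter, active mainly in T cells, removes the stop cassette before it. The labels do not name the alleles of the control mice, and 1 homozygous untreated library alone has the R26 locus in its genotype label. SCFAs are made by gut bacteria from dietary fibre. Whether libraries of a group are from different mice is not in the labels, so the p-values below measure the spread between libraries, which may be technical.

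Total counts were 16954355 to 20748995 per library, so that a gene with 0 counts could have had up to 0.145 to 0.177 CPM (3 counts, for counting error only). CPM relates the count of a gene to the total count of its library, and CPM per kilobase of annotated exon is used where genes are compared with each other. The labels date all untreated libraries to day 1 and all SCFA libraries to day 30 of month 3, so every SCFA effect below is one of treatment or of date, which cannot be told apart. The labels call the cells progenitors. The summed level of 16 late neutrophil genes was 44378 to 77232 CPM and that of 14 monocyte genes was 17046 to 26983 CPM, while 13 stem and progenitor genes summed to 306 to 384 CPM. The 18 T cell genes summed to 87.9 to 192 CPM.

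The 7 genes lie within 397 kb of chromosome 15 (74762056 to 75159126 on mm10), and all are annotated as protein-coding. Ly6d (74762056 to 74763620, minus strand) is at one end and Ly6g (75155240 to 75159126, plus strand) at the other. Between them lie Ly6e (74955051 to 74959905, plus strand), Ly6i (74979534 to 74983430, minus strand), Ly6a (74994877 to 74998031, minus strand), Ly6c1 (75044018 to 75048830, minus strand) and Ly6c2 (75108158 to 75111970, minus strand). No other gene of the GENCODE M21 annotation overlaps a member. In RefSeq the long noncoding RNA Gm28068, with 0 to 69 counts, overlaps Ly6a and Ly6i, and the strand setting of the counting is not given in the sources used.

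The coding sequences of Ly6c1 and Ly6c2 are shown because this pair limits what a short read can tell apart. They are from the GENCODE M21 transcripts of the GRCm38 build, minus strand of chromosome 15; the first 96 bases are given, and capitals mark the bases at which the genes differ.
Ly6c1: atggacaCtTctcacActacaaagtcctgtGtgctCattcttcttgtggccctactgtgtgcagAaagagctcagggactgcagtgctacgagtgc
Ly6c2: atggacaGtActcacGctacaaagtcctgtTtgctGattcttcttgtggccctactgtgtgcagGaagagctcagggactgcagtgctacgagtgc
These stretches hold 6 of the differences. Both coding sequences are 396 bases long, differ at 9 bases in all and are 97.7% identical. The longest stretch without a difference is 188 bases. Of the 50-base stretches of annotated Ly6c1 transcripts, 32.8% also occurred in another gene, against 14.4% for Ly6c2, 19.0% for Ly6a, 4.76% for Ly6i and 0.448% for Ly6g. Ly6d and Ly6e shared no such stretch with any gene. The coding sequence of Ly6a was 86.4% identical to that of Ly6i, 83.2% to that of Ly6g and 82.0% to that of Ly6c1, whereas Ly6e was at most 50% identical to any other member. How reads that fit several genes were counted is not given in the sources used, so the levels of Ly6c1, Ly6c2, Ly6a and Ly6i are less certain than those of Ly6d, Ly6e and Ly6g.

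The stretches just upstream of this pair are shown because the genes are nearly alike in their coding sequence and far apart in their counts. They are from RefSeq on GRCm38.p6, Ly6c1 at chr15:75048921-75049087 and Ly6c2 at chr15:75112067-75112221, both on the minus strand. Capitals mark bases that differ in the part that aligns, which has 35 substituted positions and 2 positions with a gap.
Ly6c1: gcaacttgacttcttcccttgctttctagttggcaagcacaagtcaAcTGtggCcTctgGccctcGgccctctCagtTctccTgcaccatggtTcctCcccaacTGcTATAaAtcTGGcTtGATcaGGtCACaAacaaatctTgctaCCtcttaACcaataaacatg
Ly6c2: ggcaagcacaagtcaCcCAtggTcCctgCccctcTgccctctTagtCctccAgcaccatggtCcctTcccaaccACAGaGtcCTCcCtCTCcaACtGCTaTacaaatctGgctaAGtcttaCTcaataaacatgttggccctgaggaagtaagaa
Over the 136 aligned positions they were 72.8% identical. RefSeq windows of the 250 bases before an annotated start were at hand for Ly6c1, Ly6c2 and Ly6g, and 4 motifs were searched in them on both strands. The windows of Ly6c1 and Ly6c2 hold the printed stretches of 167 and 155 bases. Their remaining bases lie inside the RefSeq gene, as its outermost start is further upstream. The STAT motif (GAS, TTCNNNGAA), the core of the interferon-stimulated response element (GAAA, any 2 bases, GAAA) and an EBF motif (TCCC, any 2 bases, GGGA) occurred in none of the 3 windows, and in 7.02%, 2.98% and 0.779% of 32851 windows of the same length. A partial C/EBP motif (TTGCNNAA, in 9.56% of all windows) occurred once, in the Ly6g window, as TTGAGCAA from 232 to 225 bases before the start. A match is a letter match only, and the absence of one says nothing beyond these windows.

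The members covered a wide range of levels. Averaged over the 12 libraries, Ly6e was at 1113 CPM, the 76th highest of the 33214 genes with a count. Ly6c2 was at 540.3 CPM, Ly6a at 185 CPM, Ly6d at 145 CPM, Ly6g at 60.3 CPM and Ly6i at 53.6 CPM. Ly6c1 was at 0.610 CPM, with 2 to 25 counts in a library. Per kilobase of exon, the order in homozygous untreated libraries was Ly6e (327 ± 22.9), Ly6c2 (292 ± 32.1), Ly6a (273 ± 21.7), Ly6d (101 ± 11.6), Ly6i (87.1 ± 7.57), Ly6g (74.2 ± 4.94) and Ly6c1 (0.556 ± 0.171 CPM per kilobase, SD, n = 3). Among the first 3 the libraries of neighbours overlapped, as they did among Ly6d, Ly6i and Ly6g, while these sets did not overlap each other or Ly6c1. In control untreated libraries the order was Ly6d (392 ± 71.0), Ly6e (315 ± 39.1), Ly6c2 (149.8 ± 5.04), Ly6a (80.0 ± 6.73), Ly6g (65.9 ± 8.91), Ly6i (24.2 ± 1.68) and Ly6c1 (0.464 ± 0.224 CPM per kilobase, SD, n = 3). There the libraries of Ly6d and Ly6e overlapped, as did those of Ly6a and Ly6g. Ly6e and Ly6c2 headed the order in homozygous SCFA libraries, at 304 ± 46.2 and 190.3 ± 22.1 CPM per kilobase (SD, n = 3), and Ly6d was next to last with 31.7 ± 8.27. Ly6d and Ly6e headed it in control SCFA libraries, at 258 ± 22.9 and 232 ± 26.8 CPM per kilobase (SD, n = 3), with libraries that overlapped.

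**Figure D1:**
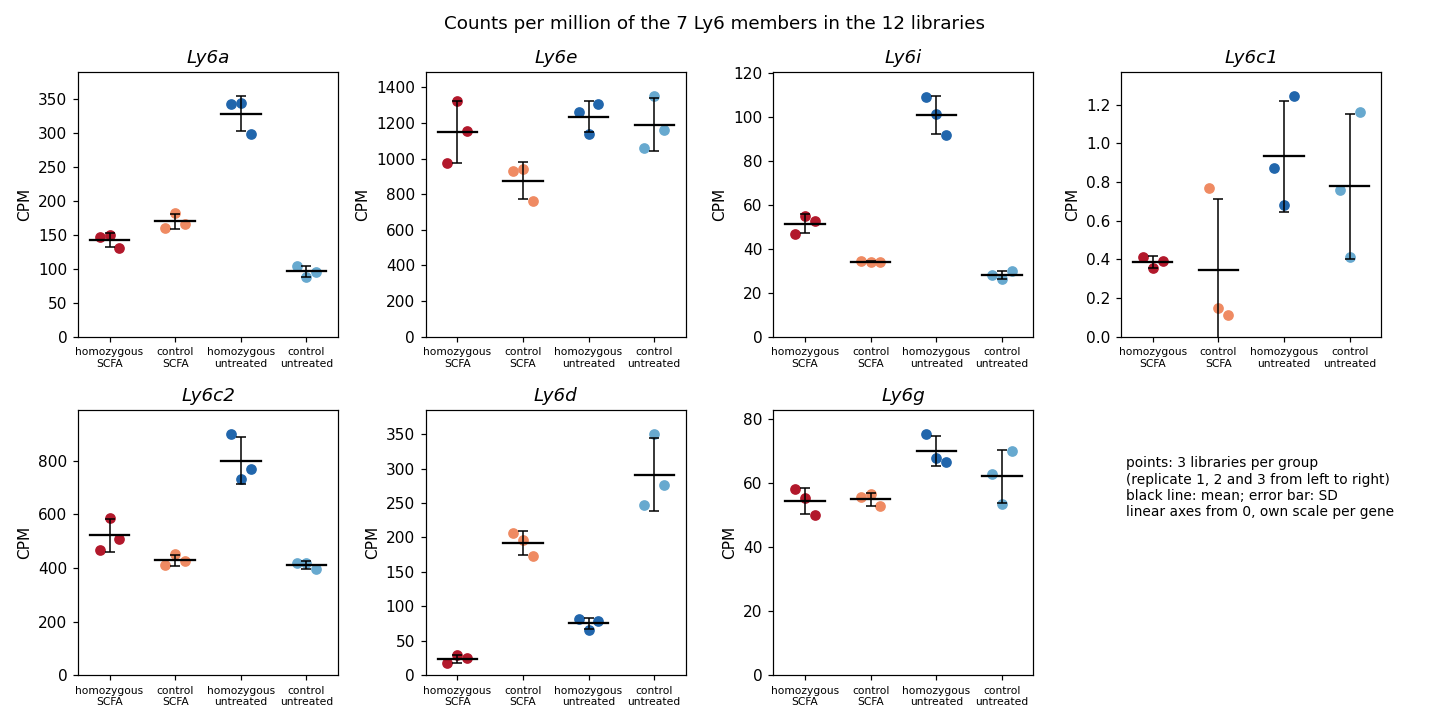
Levels in CPM (vertical axis, linear from 0, a scale of its own for each gene) of the 7 Ly6 genes in the 12 libraries, 3 points per group, with the mean as a line and the SD as an error bar. Ly6a, Ly6i and Ly6c2 are highest in homozygous untreated libraries, Ly6d is lowest in homozygous SCFA libraries, and Ly6e and Ly6g vary less.

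The first comparison asked how the Ly6 genes differed with the STAT3C genotype in mice without SCFA. Ly6a, Ly6i and Ly6c2 rose, Ly6d fell, and Ly6e, Ly6g and Ly6c1 did not pass the test. Among all 15674 genes tested, 14.8% were called at an adjusted p (edgeR quasi-likelihood F test, Benjamini-Hochberg over all genes) under 0.05, 6.69% as rises and 8.13% as falls. The median log2 fold change of the 7 members was 0.40, against -0.04 for all genes. In bulk RNA, fewer cells of a type and less RNA per cell cannot be told apart.

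Ly6a, the stem cell antigen Sca-1, had 147, 150.5 and 131 CPM in homozygous SCFA libraries, 161, 183 and 167 CPM in control SCFA libraries, 343, 346 and 299 CPM in homozygous untreated libraries and 105, 88.6 and 95.8 CPM in control untreated libraries. The homozygous untreated libraries were the highest and the control untreated libraries the lowest, and no groups overlapped. In the 4 comparisons between groups, 29.6% to 39.2% of all genes did not overlap. Without SCFA, Ly6a was 3.78-fold higher in homozygous than in control libraries, which is 1.92 ± 0.13 on the log2 scale (SE; adjusted p = 8.4e-07). Ly6i, a close relative of Ly6a, had 46.6, 55.1 and 52.7 CPM in homozygous SCFA libraries, 34.5, 34.0 and 33.9 CPM in control SCFA libraries, 109, 101 and 91.7 CPM in homozygous untreated libraries and 28.0, 26.1 and 30 CPM in control untreated libraries. Again the groups did not overlap. It rose 3.99-fold without SCFA (log2 2.00 ± 0.13, SE; adjusted p = 6.9e-07).

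Ly6c2, which encodes the Ly6C antigen of inflammatory monocytes, had 468, 587 and 509.6 CPM in homozygous SCFA libraries, 412, 451 and 424 CPM in control SCFA libraries, 899.7, 733 and 768 CPM in homozygous untreated libraries and 418, 419 and 394 CPM in control untreated libraries. The homozygous untreated libraries stood above all others, and the 2 control groups overlapped. The rise without SCFA was 2.16-fold (log2 1.11 ± 0.12, SE; adjusted p = 4.6e-05). With the counts of Ly6c1 added, it was 1.11 on the log2 scale as well. Ly6c1 itself had 8, 7 and 7 counts in homozygous SCFA libraries, 16, 3 and 2 in control SCFA libraries, 17, 14 and 25 in homozygous untreated libraries and 13, 7 and 22 in control untreated libraries. Its log2 fold change without SCFA, 0.40 ± 0.75 (SE; adjusted p = 0.753), could lie anywhere from -1.11 to 1.90 (2 SE on each side), so that no difference was detectable at this depth. The 10 genes known to mark endothelium, on which the Ly6C antigen is also found, summed to 65.9 ± 7.55 CPM in homozygous untreated libraries and 112 ± 29.0 CPM in control untreated libraries (SD, n = 3 each); their part in the Ly6c1 counts was not tested.

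Ly6d, the antigen of lymphoid cells that enter the B lineage, had 16.9, 29.1 and 24.8 CPM in homozygous SCFA libraries, 207, 196 and 173 CPM in control SCFA libraries, 81.0, 65.1 and 78.7 CPM in homozygous untreated libraries and 248, 350.1 and 276 CPM in control untreated libraries. No groups overlapped, and both homozygous groups stood below both control groups. Of all genes, 32.1% did not overlap between the groups without SCFA. Without SCFA, Ly6d fell by 1.81 ± 0.17 on the log2 scale (SE; adjusted p = 1.6e-05).

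Ly6e, the member with the most counts, is carried by many cell types. It had 973, 1322 and 1155 CPM in homozygous SCFA libraries, 931, 939 and 759.9 CPM in control SCFA libraries, 1260.0, 1139 and 1307 CPM in homozygous untreated libraries and 1059.5, 1351 and 1161 CPM in control untreated libraries. The groups without SCFA overlapped, with a difference of 0.20 ± 0.12 on the log2 scale (SE; adjusted p = 0.260) and limits of -0.04 and 0.45. Ly6g, the neutrophil antigen, had 58.1, 55.2 and 49.9 CPM in homozygous SCFA libraries, 55.7, 56.6 and 52.7 CPM in control SCFA libraries, 75.3, 67.8 and 66.7 CPM in homozygous untreated libraries and 62.8, 53.3 and 70.1 CPM in control untreated libraries. Its groups overlapped too, at 0.32 ± 0.14 (SE; adjusted p = 0.118) with limits of 0.05 and 0.59.

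**Figure D2:**
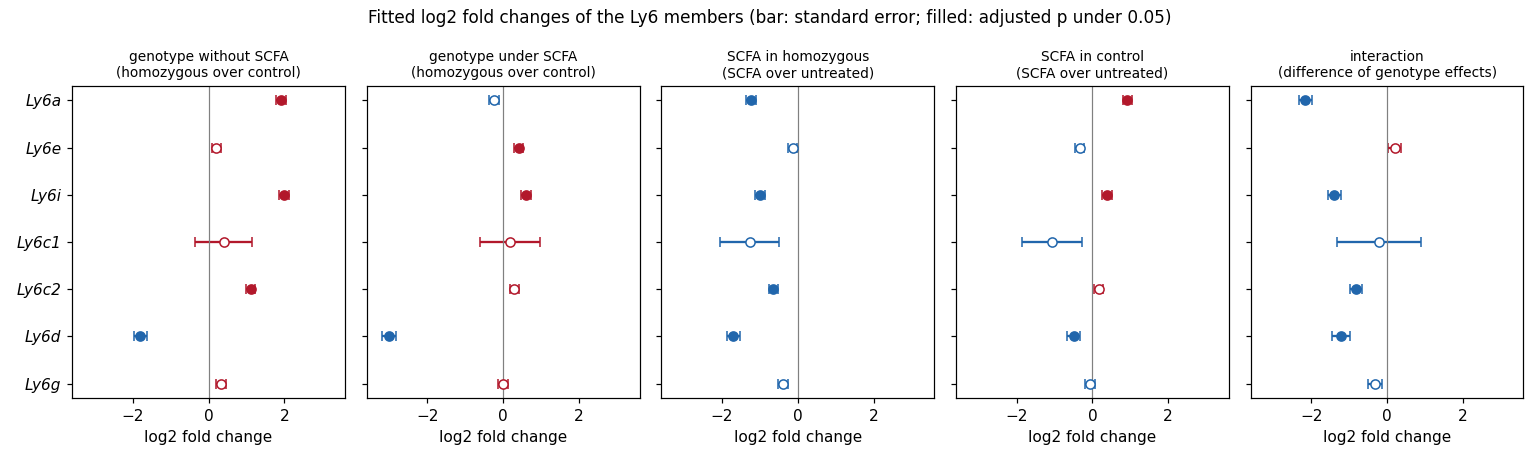
Fitted log2 fold changes (horizontal axis) of the 7 Ly6 genes in 4 comparisons between groups and in the interaction, with bars for the standard error; filled points had an adjusted p under 0.05. Ly6a lies at 1.92 for genotype without SCFA and at -0.24 under SCFA, and Ly6d lies left of 0 in all 5 panels.

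The interferon-responsive members were set beside other interferon genes. Of 30 type I interferon genes, 24 rose with the genotype without SCFA and 1 fell, at a median log2 fold change of 1.22. The largest statistics were those of the antiviral genes Ifit3, at 3.03, and Oasl2, at 2.13. Of 24 tested genes of the interferon-gamma response, 19 rose and 0 fell, at a median of 1.35, led by the guanylate-binding proteins Gbp2 at 3.20 and Gbp7 at 1.74. Ly6e did not pass the test beside these lists. Summed over the type I list, the level was 4824 ± 108 CPM in homozygous untreated libraries and 2370.1 ± 36.6 CPM in control untreated libraries (SD, n = 3 each).

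The lineage-bound members were set beside their cell types. Of 20 B lineage genes, 0 rose and 17 fell without SCFA, at a median of -1.33, led by the antigen receptor chain genes Cd79b at -1.66 and Ighm at -1.49. Their summed level was 1332 ± 66.4 CPM in homozygous untreated libraries and 4107 ± 239 CPM in control untreated libraries (SD, n = 3 each). Of 14 monocyte genes, 9 rose and 0 fell, at a median of 0.59, led by Ms4a6c at 1.01 and the proteoglycan gene Vcan at 0.85. Of 16 late neutrophil genes, 7 rose and 3 fell, at a median of 0.28, led by the granule protease Mmp8 at 0.62 and the calcium-binding S100a9 at 0.71. The neutrophil count of 10 called genes was 2 without homozygous untreated 1 or 2 and 3 without control untreated 2 or 3. Beside Ly6a, of 11 tested stem and progenitor genes, 1 rose and 1 fell, at a median of 0.02, with Cd34 at 0.74 and Myb at -0.56. The 13 listed genes summed to 332 ± 5.66 CPM in homozygous untreated libraries and 365 ± 23.8 CPM in control untreated libraries (SD, n = 3 each). The part of such cells in the Ly6a counts was not tested.

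The same genotype comparison in mice given SCFA gave other calls. Ly6i and Ly6e rose, Ly6d fell, and Ly6a, Ly6c2, Ly6g and Ly6c1 did not pass the test. Among all genes 17.4% were called, 8.89% as rises and 8.47% as falls. The median of the 7 members was 0.19, against -0.02 for all genes. Ly6i averaged 51.4 ± 4.37 CPM in homozygous SCFA libraries and 34.1 ± 0.284 CPM in control SCFA libraries (SD, n = 3 each), 1.52-fold higher (log2 0.61 ± 0.13, SE; adjusted p = 0.00525). Ly6e averaged 1149.9 ± 175 CPM in homozygous SCFA libraries and 877 ± 101 CPM in control SCFA libraries (SD, n = 3 each), 1.33-fold higher (log2 0.41 ± 0.12, SE; adjusted p = 0.0329). Its call was lost without homozygous SCFA 2 (adjusted p = 0.125), homozygous SCFA 3 (adjusted p = 0.0766) or control SCFA 3 (adjusted p = 0.131), and its adjusted p ran from 0.00315 to 0.131 over the alternatives.

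Ly6d averaged 23.6 ± 6.15 CPM in homozygous SCFA libraries and 192 ± 17 CPM in control SCFA libraries (SD, n = 3 each), and fell by 3.01 ± 0.18 on the log2 scale (SE; adjusted p = 3.8e-08). All 20 B lineage genes fell in this comparison, at a median of -3.93, or -3.74 with the 3 genes at 0 counts in homozygous SCFA libraries, Vpreb2, Rag1 and Rag2, set at the limit of 3 counts per library. The B cell transcription factor Ebf1 was at -4.36 and the B cell receptor regulator Cd72 at -4.14. Genes of other cell types fell too. Of 8 plasmacytoid dendritic cell genes, 0 rose and 7 fell, at a median of -2.62, led by the transcription factor Spib at -3.97 and the chemokine receptor Ccr9 at -2.97. Their sum was 86.5 ± 12.2 CPM in homozygous SCFA libraries and 494 ± 18.7 CPM in control SCFA libraries (SD, n = 3 each). Of 11 tested erythroid genes, 2 rose and 6 fell, at a median of -1.95, led by the globin Hbb-bs at -2.65 and the haem synthesis enzyme Alas2 at -2.08. The part of these cell types in the fall of Ly6d was not tested. Ly6a averaged 143 ± 10.2 CPM in homozygous SCFA libraries and 170.3 ± 11.3 CPM in control SCFA libraries (SD, n = 3 each). Its log2 fold change of -0.24 ± 0.13 (SE) did not pass (adjusted p = 0.223), although the groups did not overlap, as was the case for 39.2% of all genes in this comparison. Ly6c2 averaged 521 ± 60.5 CPM in homozygous SCFA libraries and 429 ± 20.2 CPM in control SCFA libraries (SD, n = 3 each), also without overlap and not called (log2 0.29 ± 0.12, SE; adjusted p = 0.102). It was called with limma-voom, at 0.30 (adjusted p = 0.0301), with only the groups compared, at 0.33 (adjusted p = 0.0386), and without control untreated 1, at 0.33 (adjusted p = 0.0388). Ly6g averaged 54.4 ± 4.2 CPM in homozygous SCFA libraries and 55.0 ± 2.02 CPM in control SCFA libraries (SD, n = 3 each), with limits of -0.27 and 0.27 on the log2 fold change. For Ly6c1 the log2 fold change was 0.19 ± 0.80 (SE; adjusted p = 0.904).

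Of the 30 type I genes, 2 rose and 10 fell with the genotype under SCFA, at a median of -0.37, led by the antiviral enzymes Rsad2 at -2.26 and Isg20 at -1.47. Of the 24 interferon-gamma genes, 15 rose and 1 fell, at a median of 0.80, led by Gbp2 at 2.21 and Gbp3 at 1.31. Of the 14 monocyte genes, 8 rose and 0 fell, at a median of 0.58, with lysozyme (Lyz2) at 0.68 and the growth factor receptor gene Csf1r at 0.96; 5 were called without control SCFA 1 or control SCFA 3. Among late neutrophil genes, 8 rose and 0 fell, at a median of 0.31, led by the antimicrobial peptide Camp at 0.90 and the iron-binding Lcn2 at 0.61.

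In homozygous mice, SCFA was accompanied by falls of Ly6a, Ly6i, Ly6c2 and Ly6d, and no member rose. Among all genes 9.58% were called, 3.96% as rises and 5.61% as falls, and the medians were -1.0 for the members and 0.00 for all genes. Ly6a fell by 1.23 ± 0.13 (SE; adjusted p = 1.8e-05), to 143 ± 10.2 CPM in homozygous SCFA libraries, against 329 ± 26.1 CPM in homozygous untreated libraries (SD, n = 3 each). Ly6i fell by 1.0 ± 0.13 (SE; adjusted p = 1.3e-04), to 51.4 ± 4.37 CPM, against 101 ± 8.75 CPM in homozygous untreated libraries (SD, n = 3 each). Ly6c2 fell by 0.65 ± 0.12 (SE; adjusted p = 0.00307), to 521 ± 60.5 CPM, against 800.2 ± 88.0 CPM in homozygous untreated libraries (SD, n = 3 each). Ly6d fell by 1.70 ± 0.18 (SE; adjusted p = 1.6e-05), to 23.6 ± 6.15 CPM, against 75.0 ± 8.60 CPM in homozygous untreated libraries (SD, n = 3 each). Ly6g, at -0.39 ± 0.14 (SE; adjusted p = 0.0865), did not pass, although its groups did not overlap, as was the case for 29.6% of all genes. It was called with DESeq2, at -0.40 (adjusted p = 0.0447), with limma-voom, at -0.45 (adjusted p = 0.0133), and without control untreated 2, at -0.38 (adjusted p = 0.0497). Ly6e was at -0.13 ± 0.12 (SE; adjusted p = 0.560), with limits of -0.37 and 0.11, and Ly6c1 at -1.27 ± 0.78 (SE; adjusted p = 0.341).

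Of the 30 type I genes, 0 rose and 29 fell in this comparison, at a median of -1.54, with Ifit3 at -3.52 and Rsad2 at -2.82. Of the interferon-gamma genes, 0 rose and 11 fell, at a median of -0.71, with the immunity-related GTPase Irgm1 at -1.54 and Gbp9 at -1.08. All 20 B lineage genes fell, at a median of -2.39, with Ebf1 at -2.49. Of the monocyte genes, 3 rose and 0 fell, at a median of 0.09, with Lyz2 at 0.35 and Csf1r at 0.73; 1 was called without homozygous SCFA 3 or homozygous untreated 2, and 5 without homozygous SCFA 1 or control untreated 1. Among late neutrophil genes, 3 rose and 0 fell, at a median of 0.06, with the growth factor receptor Csf3r at 0.84 and Mmp9 at 0.71.

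In control mice, SCFA was accompanied by a rise of Ly6a, with calls near the threshold for Ly6i and Ly6d. Among all genes 21.9% were called, 8.89% as rises and 13% as falls, and the medians were -0.07 for the members and 0.04 for all genes. Ly6a rose 1.90-fold, to 170.3 ± 11.3 CPM in control SCFA libraries, against 96.4 ± 8.11 CPM in control untreated libraries (SD, n = 3 each; log2 0.92 ± 0.13, SE; adjusted p = 0.00141). Ly6i rose to 34.1 ± 0.284 CPM in control SCFA libraries, against 28.0 ± 1.94 CPM in control untreated libraries (SD, n = 3 each; log2 0.39 ± 0.13, SE; adjusted p = 0.0438). Ly6d fell by 0.49 ± 0.17 (SE; adjusted p = 0.0482), to 192 ± 17 CPM, against 291 ± 52.8 CPM in control untreated libraries (SD, n = 3 each). The calls of Ly6i and Ly6d were both lost without any 1 of homozygous SCFA 3, control SCFA 1, 2 and 3, homozygous untreated 2, and control untreated 2 and 3, which left 1 member called. Of 19 alternatives other than sums over paralogs, the call of Ly6i was lost in 15 and that of Ly6d in 11. The adjusted p of Ly6i ran from 0.00882 to 0.203 and that of Ly6d from 0.0111 to 0.176 over the alternatives. Ly6e, at -0.33 ± 0.12 (SE; adjusted p = 0.0619), was not called and its groups did not overlap (37.2% of all genes), and it was called with DESeq2 (-0.31, adjusted p = 0.0297), limma-voom (-0.30, adjusted p = 0.0346) and library totals (-0.44, adjusted p = 0.0298) and without control untreated 1 (-0.43, adjusted p = 0.0174). Ly6c2 was at 0.17 ± 0.12 (SE; adjusted p = 0.320), Ly6g at -0.07 ± 0.14 (SE; adjusted p = 0.744) and Ly6c1 at -1.07 ± 0.78 (SE; adjusted p = 0.348).

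Of the 30 type I genes, 6 rose and 8 fell here, at a median of 0.16, with Isg20 at -1.11 and Parp14 at 0.80. Against these 14 calls, 4 type I genes were called without control SCFA 3, 6 without control untreated 2, and 8 without homozygous SCFA 3, control SCFA 1 or control SCFA 2. Among the B lineage genes, 3 rose and 4 fell, at a median of -0.20, with Ebf1 at 0.52. Without control SCFA 3, 0 B lineage genes were called (edgeR), against 2 without control SCFA 2, control untreated 2 or control untreated 3, 4 without control SCFA 1, and 12 without control untreated 1. Of the 24 interferon-gamma genes, 1 rose and 4 fell, at a median of -0.0042, led by Gbp9 at 0.51 and the immunoproteasome subunit Psmb8 at -0.63; 1 was called without control SCFA 3, 2 without control SCFA 2 or control untreated 2, 3 without control SCFA 1 or with only the groups compared, and 8 with DESeq2. The late neutrophil list had 6 rises and 6 falls among its 16 genes, at a median of -0.05, led by the neutrophil antigen Cd177 at -0.92 and lactoferrin (Ltf) at -0.79. The neutrophil calls numbered 2 without control SCFA 3, 5 without control untreated 2, 6 without control SCFA 2 and 7 without control untreated 3 or with only the groups compared. Of the 14 monocyte genes, 5 rose and 3 fell, at a median of 0.20, led by Mpeg1 at 0.71 and Ms4a6c at 0.44. The monocyte calls numbered 1 with only the groups compared, 5 with no filter on low counts, 1 without control SCFA 3, control untreated 2 or control untreated 3, 2 without control SCFA 1 or 2, 3 without homozygous SCFA 3 or homozygous untreated 1, and 4 without homozygous SCFA 2 or homozygous untreated 2 or 3.

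The genotype difference itself depended on SCFA for 4 members. The interaction was -2.15 ± 0.18 on the log2 scale for Ly6a (SE; adjusted p = 5.8e-06), -1.39 ± 0.18 for Ly6i (SE; adjusted p = 3.1e-04), -0.82 ± 0.17 for Ly6c2 (SE; adjusted p = 0.00460) and -1.21 ± 0.24 for Ly6d (SE; adjusted p = 0.00402). Among all genes 25.1% were called, 13.6% with a positive and 11.6% with a negative interaction. Ly6e, at 0.20 ± 0.17 (SE; adjusted p = 0.412), Ly6g, at -0.32 ± 0.19 (SE; adjusted p = 0.238), and Ly6c1, at -0.21 ± 1.11 (SE; adjusted p = 0.908), were not called. Of the 30 type I genes, 25 had a negative and 0 a positive interaction, at a median of -1.62, and among the B lineage genes 19 and 0. The other lists were mixed. Of the 24 interferon-gamma genes, 12 had a negative and 2 a positive interaction, at a median of -0.85. Among the 14 monocyte genes, 3 were negative and 3 positive, at a median of -0.18. Among the 16 late neutrophil genes, 3 were negative and 7 positive, at a median of -0.13.

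Ratios within a library do not depend on scaling. Log2 ratios of a member to the summed list of its cell type or pathway, and of Ly6c2 to Ly6c1, were compared in 20 tests. With 3 libraries against 3 the exact two-sided permutation test cannot go below p = 0.10, which 12 of the 20 reached, and the smallest adjusted p over the 20 was 0.167, so none can pass. Ly6d over the B lineage sum was -4.19 ± 0.34 in homozygous SCFA libraries and -4.26 ± 0.12 in control SCFA libraries (SD, n = 3 each), a difference of 0.07. It was -4.16 ± 0.14 in homozygous untreated libraries and -3.83 ± 0.17 in control untreated libraries (SD, n = 3 each), a difference of -0.33. Ighm alone averaged 211 CPM of the B lineage sum of 421 CPM in homozygous SCFA libraries, and 1273 of 3665 CPM in control SCFA libraries. Between the SCFA groups Ly6d fell by 3.01 on the log2 scale. The median of the 20 B lineage genes was -3.93, or -3.74 with the 3 genes at 0 counts set at their limit. Whether the fall of Ly6d followed that of B lineage RNA was not tested.

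Ly6c2 over the monocyte sum was -5.69 ± 0.16 in homozygous SCFA libraries and -5.41 ± 0.05 in control SCFA libraries, against -4.79 ± 0.16 in homozygous untreated libraries and -5.40 ± 0.06 in control untreated libraries (SD, n = 3 each). This sum is mostly Lyz2, so the ratio is largely one to Lyz2. Lyz2 averaged 16440 of 26862 CPM in homozygous SCFA libraries and 10386 of 18216 CPM in control SCFA libraries. It averaged 12692 of 21982 CPM in homozygous untreated libraries and 10535 of 17270 CPM in control untreated libraries. The homozygous untreated libraries stood 0.61 above the control untreated libraries and the homozygous SCFA libraries 0.91 below the homozygous untreated libraries, without overlap in either case. Ly6g over the late neutrophil sum was -10.3 ± 0.02 in homozygous SCFA libraries and -10.2 ± 0.06 in control SCFA libraries, against -9.96 ± 0.10 in homozygous untreated libraries and -9.67 ± 0.25 in control untreated libraries (SD, n = 3 each). Ly6a over the type I interferon sum was -3.49 ± 0.15 in homozygous SCFA libraries, -3.68 ± 0.10 in control SCFA libraries, -3.88 ± 0.10 in homozygous untreated libraries and -4.62 ± 0.14 in control untreated libraries (SD, n = 3 each). Homozygous untreated libraries stood 0.75 and control SCFA libraries 0.94 above the control untreated libraries, without overlap.

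**Figure D3:**
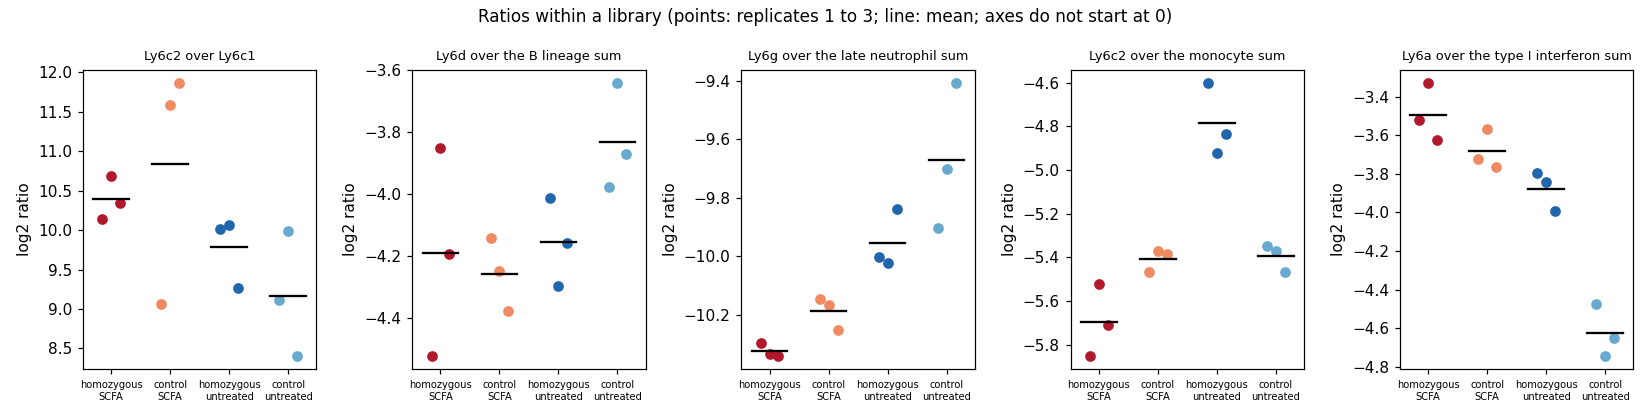
Log2 ratios within a library (vertical axis, not starting at 0) of a Ly6 gene to the summed CPM of a gene list, or of Ly6c2 to Ly6c1, with 3 points per group and the mean as a line. Ly6c2 over the monocyte sum is highest in homozygous untreated libraries, and Ly6a over the type I interferon sum is lowest in control untreated libraries.

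The genes whose profile over the 12 libraries was most like that of each member were found by the root mean square difference of centred log2 CPM. The candidates were 9557 genes averaging 5 CPM or more. Genes with provisional Gm or Rik names and antigen receptor gene segments had been left out of them. For Ly6a they were the growth factor receptor gene Met (0.22) and the interferon-induced Ddx60 (0.23) and Ifi204 (0.24). For Ly6i they were the interferon-gamma genes Gbp7 (0.20), Ifi47 (0.23) and Igtp (0.25). For Ly6c2 they were Plac8 (0.13), the purine enzyme Pnp (0.15) and the antiviral Ifitm3 (0.16). For Ly6d they were the mitochondrial Chchd10 (0.12), Pafah1b3 (0.18) and the B cell receptor chain Cd79b (0.18). For Ly6e they were the granule protease Ctsg (0.08), the lysyl-tRNA synthetase Kars (0.09) and Tspan31 (0.09), and for Ly6g Actr3-ps (0.07), Gtf2f2 (0.08) and Pcmt1 (0.10), where the profiles are nearly flat. For the sparse Ly6c1 the nearest was Bbc3, at 0.53. Between the members themselves, the smallest differences were 0.25 between Ly6e and Ly6g and 0.32 between Ly6a and Ly6i. Close behind were 0.33 between Ly6c2 and Ly6g, and 0.34 between Ly6c2 and each of Ly6e and Ly6i. The largest was 1.91 between Ly6i and Ly6d.

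Other genes of the locus were read in the same way. Within 20 kb of the span, 26 RefSeq genes lie, of which 22 are in the count table and 9 reached 100 counts in a library. Lynx1, a relative that binds acetylcholine receptors and lies next to Ly6d, had 2.22 ± 0.16 CPM in homozygous SCFA libraries, 16.5 ± 1.20 CPM in control SCFA libraries, 5.25 ± 0.59 CPM in homozygous untreated libraries and 19.0 ± 4.65 CPM in control untreated libraries (SD, n = 3 each). Its log2 fold change with the genotype was -1.70 ± 0.20 without SCFA (SE; adjusted p = 1.2e-04) and -2.87 ± 0.22 under SCFA (SE; adjusted p = 4.0e-07). With SCFA in homozygous mice it was -1.27 ± 0.22 (SE; adjusted p = 0.00174), and all 3 falls passed the test. Ly6a2, named after its values were seen, lies between Ly6c2 and Ly6g and rose by 0.65 ± 0.12 with the genotype without SCFA (SE; adjusted p = 0.00387). It averaged 184 ± 14.9 CPM in homozygous untreated libraries and 130.0 ± 7.57 CPM in control untreated libraries (SD, n = 3 each), and was not called in the other comparisons. The noncoding Gm39556, between Ly6d and Ly6e, was not called in any.

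**Figure D4:**
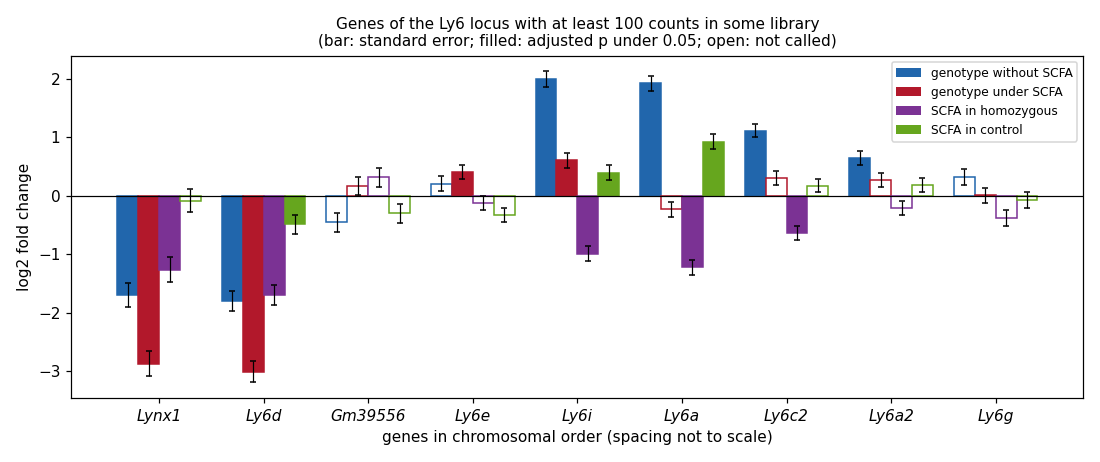
Log2 fold changes (vertical axis) of the 9 genes of the Ly6 locus with at least 100 counts in some library, in chromosomal order, in 4 comparisons; bars filled in colour had an adjusted p under 0.05, open bars did not, and error bars are standard errors. Lynx1 and Ly6d, at one end, fall with the genotype, and Ly6i, Ly6a, Ly6c2 and Ly6a2 rise with the genotype without SCFA.

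Of 32 other genes of the Ly6 and urokinase receptor family across the genome, 12 passed the filter. With the genotype, 1 rose and 1 fell without SCFA and 4 rose and 1 fell under SCFA; with SCFA, 1 rose and 1 fell in homozygous mice and 0 rose and 2 fell in control mice. Among all genes 14.8%, 17.4%, 9.58% and 21.9% were called in these comparisons, in this order, so that 2 of 12 was close to the background. Cd59a, an inhibitor of complement, was at 1.36 without SCFA (adjusted p = 0.0106) and at 1.47 under SCFA (adjusted p = 0.00464). Plaur, the urokinase receptor, rose by 0.85 with the genotype under SCFA (adjusted p = 0.00107), averaging 282 ± 44.4 CPM in homozygous SCFA libraries and 158 ± 21.9 CPM in control SCFA libraries (SD, n = 3 each). Without SCFA Plaur was at -0.38 and not called (adjusted p = 0.0802). It averaged 177 ± 19.3 CPM in homozygous untreated libraries and 256 ± 43.1 CPM in control untreated libraries (SD, n = 3 each). With SCFA it was at -0.59 in control mice (adjusted p = 0.0124) and at 0.65 in homozygous mice (adjusted p = 0.0107). The count without SCFA was 1 without homozygous untreated 1 and 5 without control untreated 1; in homozygous mice it was 1 without homozygous untreated 2, and in control mice 1 without control SCFA 2 or control SCFA 3.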

How the data were processed

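RNA was measured in 12 libraries. The values deposited by the authors are raw counts, 1 row per gene symbol. The submitters' processing notes name STAR, featureCounts and the build mm10; tool versions, the annotation, and how strand and shared reads were handled are not given in the sources used. The test was the quasi-likelihood F test of edgeR 4.0.16 (R 4.3.3), after filterByExpr by group and with TMM factors (12 libraries in 1 fit of 4 group means, Benjamini-Hochberg over 15674 genes, called at adjusted p under 0.05). Totals of 16954355 to 20748995 counts set the limits for low counts. Libraries of a group differed beyond sampling noise (chi-square 11.7 to 88.7 per degree of freedom, highest between control untreated libraries), and each was counted once. The procedure was tested on simulated counts. In comparisons between groups it recovered 3 to 8 of 67 genes changed 1.5-fold, 31 to 34 of 67 changed 2-fold and 44 to 48 of 66 changed 4-fold. In the interaction it recovered 1 of 67, 9 of 67 and 34 of 66. False calls numbered 0 to 4 per comparison. A gene that did not pass may thus have changed.

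All members were named in every comparison, with the 3 genes nearest in profile and, of each gene list set beside a member, the 2 with the smallest p; Igll1 and Rag1, which this names, had counts at or near 0 in homozygous SCFA libraries and get no fold, and 1 further gene that it names is not reported here. The members, lists and comparisons were chosen with earlier results of these data known. Coordinates and transcripts are from GENCODE M21, upstream sequences from RefSeq (GRCm38.p6), which matched 3 of the 7 members. Alternatives were DESeq2 1.42.0, limma-voom (limma 3.58.1), RLE factors, library totals only, no low-count filter, the groups compared only, a replicate block, each library left out, and summed paralogs; library totals and the sum of Ly6c2 with Ly6a2 were added after seeing the data. Python 3.11.15 with pandas 2.3.3, scipy 1.17.1, Biopython 1.88 and matplotlib 3.10.9 was used for tables, sequences and figures.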

Additional observations from a re-analysis of the deposited data

Results flagged for a closer look

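The genotype effect of 4 Ly6 genes differed between mice given SCFA and mice left untreated, by the test of the difference itself (edgeR quasi-likelihood interaction, adjusted over all genes). The interaction on the log2 scale was -2.15 for Ly6a, -1.39 for Ly6i, -0.82 for Ly6c2 and -1.21 for Ly6d, and 25.1% of all genes were called. Ly6a was at -0.24 under SCFA and 1.92 without it, Ly6i at 0.61 and 2.00, Ly6c2 at 0.29 and 1.11, and Ly6d at -3.01 and -1.81. The label date, which differs between SCFA and untreated libraries, cannot be told apart from the treatment.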

How the results depend on the processing

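The calls of Ly6a, Ly6i, Ly6c2 and Ly6d for genotype without SCFA, for SCFA in homozygous mice and in the interaction held under every alternative run other than the sums over paralogs, as did those of Ly6i and Ly6d under SCFA. The sum of Ly6a, Ly6c1, Ly6c2, Ly6g and Ly6i was also called for genotype without SCFA, at 1.27 (adjusted p = 6.7e-06). It was called for SCFA in homozygous mice, at -0.78 (adjusted p = 3.1e-04), and in the interaction, at -1.09 (adjusted p = 6.0e-04). For genotype under SCFA this sum was not called (adjusted p = 0.297). The members called with SCFA in control mice were 3, but 1 with only the groups compared, and 1 to 3 with a library left out. The replicate numbers do not pair the libraries (correlations of same-numbered libraries -0.11 to 0.11 over 18 pairs, 1 of them over 0.1); with a replicate block 1 member was called with SCFA in control mice, and the log2 fold change of Ly6g under SCFA was -0.00173, with no other change of sign or of the number of members called. Ly6g under SCFA was also -0.015 with library totals, -0.050 with limma-voom and -0.076 to 0.082 with a library left out. Ly6c1 in the interaction was 0.56 with limma-voom and -0.62 to 1.12 with a library left out, and under SCFA -0.20 to 1.54. With Ly6c1 and Ly6c2 summed the value for SCFA in control mice was 0.17; with all 5 of Ly6a, Ly6c1, Ly6c2, Ly6g and Ly6i summed it was 0.31 and not called, and 0.18 for genotype under SCFA, where Ly6a alone was negative. With mean log values in place of summed lists, Ly6d over the B lineage with SCFA in homozygous mice was 0.64, Ly6g over late neutrophil genes for genotype without SCFA 0.12, and Ly6c2 over monocyte genes with SCFA in control mice 0.076. With a library left out, these ratio differences ran as follows: Ly6c2 over Ly6c1 under SCFA -1.33 to 0.068, Ly6d over the B lineage -0.10 to 0.24 under SCFA and -0.20 to 0.13 with SCFA in homozygous mice, and Ly6c2 over monocyte genes -0.0490 to 0.017 with SCFA in control mice. Library totals moved the median of all genes for genotype without SCFA to -0.18. Genes called numbered 914 with only the groups compared, against 2323, for genotype without SCFA, and 2035 against 3433 for SCFA in control mice. With limma-voom they were 3922, 4762 against 2722 for genotype under SCFA, and 2988 against 1501 for SCFA in homozygous mice, where DESeq2 gave 2310. With a library left out, they were 770 to 4334, 1431 to 3282, 748 to 1998 and 613 to 5090 for genotype without and under SCFA and for SCFA in homozygous and in control mice, in this order, and 2455 to 5381 for the interaction, against 3938. The causes were not tested.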
